A study of Homo sapiens with 5 samples.

Results

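The genes described here encode the Wnt ligands, their Frizzled and LRP receptors, secreted inhibitors, the cytoplasmic proteins that control beta-catenin, and the LEF/TCF nuclear factors. They were taken by name, as every gene called WNT or FZD with a number (and a letter A or B for ligands) together with LRP5, LRP6, CTNNB1, AXIN1, AXIN2, APC, LEF1, TCF7, TCF7L1, TCF7L2, DKK1, DKK3, SFRP1, SFRP2 and RNF43. This gave 44 of the 57905 genes in the table, among them 19 ligands and 10 Frizzled receptors. RNA of 5 human cell lines, all labelled wild type and all grown in RPMI medium with fetal bovine serum, had been sequenced with 1 library per line. MKL-1, MKL-2, WaGa and MCC13 are labelled Merkel cell carcinoma, a neuroendocrine skin cancer, and REH is labelled pre-B-cell acute lymphoblastic leukemia. No treatment was applied and no line was replicated, so n counts lines and no SD or SE measures a spread within a line. Each SE blends the spread between lines with a variance trend over all genes tested. As background, MKL-1, MKL-2 and WaGa carry Merkel cell polyomavirus and MCC13 does not, so virus status and this line cannot be told apart.

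Wnt ligands are secreted, lipid-modified proteins that bind a Frizzled receptor, and in the beta-catenin branch also LRP5 or LRP6. Without ligand, a complex built on AXIN1 and APC marks beta-catenin (CTNNB1) for degradation. With ligand, beta-catenin accumulates and enters the nucleus, where it binds LEF1, TCF7, TCF7L1 or TCF7L2 and switches on targets such as AXIN2, RNF43 and NOTUM, which feed back on the pathway. Other ligands, WNT5A and WNT5B among them, often act without beta-catenin through ROR and planar polarity proteins.

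Levels are given as TPM, a transcript abundance corrected for transcript length and set to an equal sum in each library. Levels of different genes may therefore be set side by side, but the read depth behind a value is unknown. Between 15949 and 16921 genes reached 1 TPM in a line. The labels were checked against lists of marker genes. Of 10 Merkel and neuroendocrine markers, 9 or 10 reached 1 TPM in the 3 virus-positive lines (summed level 4163 to 7704 TPM). In MCC13 only 2 did, with a summed level of 38.7 TPM, and ATOH1, INSM1, KRT20, ISL1 and NEUROD1 were listed at 0 there. Of 10 mesenchymal markers 9 reached 1 TPM in MCC13, with a summed level of 11484 TPM against 17.5 to 256 TPM in the other 3. MCC13 thus lacked most of the defining markers of its labelled tumour type, and every comparison with it below carries this difference, whose part in the results was not tested. REH had 9 of 10 early B lineage markers at 1 TPM or more, and VPREB1 was listed at 0. Of 6 T and NK cell genes, CD3D, CD3E and CD2 were listed at 0 in all 5 lines. REH had 2 of the 6, NKG7 and CD247, at 1 TPM or more (summed level 14.2 TPM). MKL-1 and MCC13 had 1 of the 6 at that level, and MKL-2 and WaGa had 0.

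Of the 44 Wnt genes, 36 reached 1 TPM in at least 1 line and 11 did so in all 5. The remaining 8 (WNT1, WNT3A, WNT8A, WNT9B, WNT10B, WNT16, FZD10 and SFRP2) stayed at or below 0.621 TPM, and WNT1 and SFRP2 were listed at 0 in all 5 lines. MCC13 had 27 of the genes at 1 TPM or more, WaGa 24, MKL-2 22, MKL-1 19 and REH 17. Of the 36, 18 were highest in MCC13, 5 in MKL-1, 5 in REH, 4 in MKL-2 and 4 in WaGa. The share of all genes highest in each of the 5 lines was not computed, so these counts only describe the 36. Among the Merkel cell carcinoma lines, 7 of them reached 1 TPM in MCC13 alone.

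**Figure D1:**
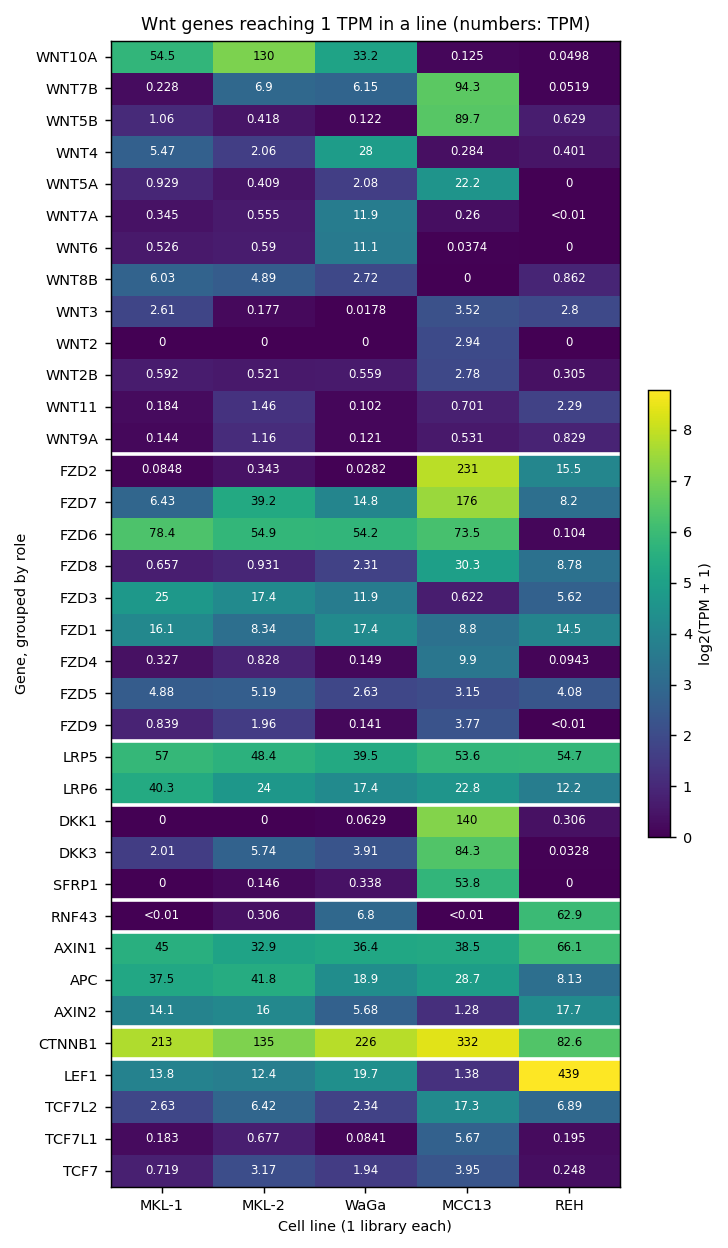
Levels of the 36 Wnt genes that reached 1 TPM in a line, with genes in rows grouped by role, the 5 cell lines in columns, colour as log2(TPM + 1) and the TPM printed in each cell. WNT10A spans 33.2 to 130.3 TPM over WaGa, MKL-1 and MKL-2, and the column of MCC13 holds the highest value for 18 of the 36 genes.

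The ligands differed in kind between the lines. WNT10A, a ligand of skin appendage and tooth development, was the most abundant ligand in MKL-1, MKL-2 and WaGa. Its level was 130.3 TPM in MKL-2, 54.5 TPM in MKL-1 and 33.2 TPM in WaGa, while MCC13 had 0.125 TPM and REH 0.0498 TPM. The lowest of the 3 virus-positive lines was 266 times MCC13, and the groups did not overlap. In bulk RNA, fewer expressing cells and less RNA per cell cannot be told apart. On the log2(TPM + 1) scale MCC13 lay lower, with a difference of -5.81 ± 0.92 (SE, limma, adjusted p = 0.0585), just outside the threshold of 0.05. The call changed with the setting: with a pseudocount of 0.1 TPM the adjusted p was 0.0352, and among genes averaging 5 TPM or more it was 0.0384. WNT6, the neighbour of WNT10A, whose annotated span overlaps that of WNT10A in RefSeq, did not follow it. WNT6 was at 11.1 TPM in WaGa, 0.590 TPM in MKL-2, 0.526 TPM in MKL-1 and 0.0374 TPM in MCC13, and was listed at 0 in REH. Because the spans overlap, some reads could have been assigned to either gene.

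WaGa had the broadest set of ligands, with 7 of 19 at 1 TPM or more, against 6 in MKL-2, 5 in MKL-1, 6 in MCC13 and 2 in REH. WNT4, which acts in kidney and female reproductive tract development, stood at 28.0 TPM in WaGa, 2.06 TPM in MKL-2, 5.47 TPM in MKL-1, 0.401 TPM in REH and 0.284 TPM in MCC13. WNT7A, a ligand of limb and neural patterning, stood at 11.9 TPM in WaGa and 0.555 TPM in MKL-2, 0.345 TPM in MKL-1, 0.0013 TPM in REH and 0.260 TPM in MCC13. WNT10A took 86.4% of the summed ligand level in MKL-2 and 74.9% in MKL-1 but 34.6% in WaGa, where WNT4 took 29.1% and WNT7A 12.4%. WNT8B, a ligand of forebrain development, was at 2.72, 6.03 and 4.89 TPM in WaGa, MKL-1 and MKL-2, at 0.862 TPM in REH, and listed at 0 in MCC13. Its difference for MCC13 was -2.42 ± 0.52 (SE, limma, adjusted p = 0.0999) and passed only with a pseudocount of 0.1 TPM (adjusted p = 0.0470).

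MCC13 had the highest summed ligand level, 218 TPM, against 96.2 TPM in WaGa, 150.7 TPM in MKL-2, 72.8 TPM in MKL-1 and 8.74 TPM in REH, and other ligands supplied it. WNT7B, a ligand of lung and kidney epithelium, stood at 94.3 TPM in MCC13, 6.15 TPM in WaGa, 6.90 TPM in MKL-2, 0.228 TPM in MKL-1 and 0.0519 TPM in REH. WNT5B stood at 89.7 TPM in MCC13, 0.122 TPM in WaGa, 0.418 TPM in MKL-2, 1.06 TPM in MKL-1 and 0.629 TPM in REH. WNT5A, its paralog and the best known ligand of the branch without beta-catenin, stood at 22.2 TPM in MCC13, 0.409 TPM in MKL-2, 2.08 TPM in WaGa and 0.929 TPM in MKL-1, and was listed at 0 in REH. For these 3 ligands MCC13 was 13.7, 84.3 and 10.7 times the highest of the other 3 Merkel cell carcinoma lines. WNT5B passed the test (log2 difference 5.93 ± 0.52 (SE), limma, adjusted p = 0.0174), though not with a pseudocount of 0.1 TPM (adjusted p = 0.0627). WNT5A gave 3.52 ± 0.60 (adjusted p = 0.0667, limma) and passed only among genes averaging 5 TPM or more (adjusted p = 0.0416). WNT7B gave 4.54 ± 1.40 (adjusted p = 0.171, limma), with the 3 other lines spread over 0.228 to 6.90 TPM.

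The low-level ligands WNT2 and WNT2B were also higher in MCC13. Both entered the test only because they reached 1 TPM there. WNT2, which acts in lung and placental development, stood at 2.94 TPM in MCC13 and was listed at 0 in the other 4 lines (log2 difference 1.98 ± 0.12 (SE), limma, adjusted p = 0.00949). WNT2B, a related ligand, stood at 2.78 TPM in MCC13, at 0.559, 0.592 and 0.521 TPM in WaGa, MKL-1 and MKL-2, and at 0.305 TPM in REH. Its difference was 1.28 ± 0.17 (SE, limma, adjusted p = 0.0433), and it did not pass with a pseudocount of 0.1 TPM (adjusted p = 0.0948) or without a filter on low values (adjusted p = 0.0630). WNT3, a ligand of the early body axis, reached 3.52 TPM in MCC13, 2.61 TPM in MKL-1 and 2.80 TPM in REH, but only 0.0178 TPM in WaGa and 0.177 TPM in MKL-2, so the Merkel cell carcinoma lines split on it without regard to MCC13. In REH the highest ligands were WNT3 and WNT11, the latter, a ligand of cell movement in the embryo, at 2.29 TPM. WNT11 stood at 1.46 TPM in MKL-2, 0.701 TPM in MCC13, 0.184 TPM in MKL-1 and 0.102 TPM in WaGa. WNT9A stood at 1.16 TPM in MKL-2, 0.8289 TPM in REH, 0.531 TPM in MCC13, 0.144 TPM in MKL-1 and 0.121 TPM in WaGa. Neither set MCC13 or REH apart in a test.

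**Figure D2:**
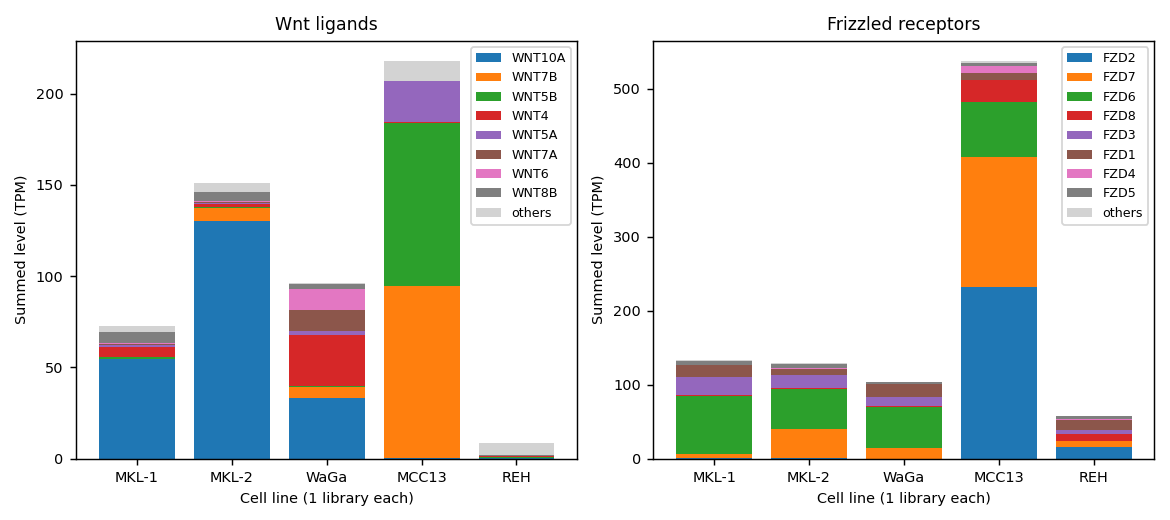
Summed levels in TPM (bars start at 0) of the 19 Wnt ligands on the left and the 10 Frizzled receptors on the right, by cell line, with the most abundant genes in colour and the rest in grey. WNT10A fills most of the ligand bar in MKL-1 and MKL-2, WNT7B and WNT5B that of MCC13, and the Frizzled bar of MCC13 reaches 537.7 TPM.

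Frizzled transcripts were present in every line, and the leading receptor changed with the line. FZD6, a receptor of planar polarity in skin and hair, was the most abundant in MKL-1, MKL-2 and WaGa, with 59.1%, 42.5% and 52.2% of the summed Frizzled level. It stood at 54.2 TPM in WaGa, 54.9 TPM in MKL-2, 78.4 TPM in MKL-1 and 73.5 TPM in MCC13, against 0.104 TPM in REH. The 4 Merkel cell carcinoma lines lay close together and all at least 521 times REH. Being below 1 TPM in REH, FZD6 entered the test against it only because it was high in the other lines. FZD6 passed the test against REH (log2 difference 5.89 ± 0.39 (SE), limma, adjusted p = 0.00572), and also without MCC13 (5.82 ± 0.37, adjusted p = 0.0102), but not when one of the other 3 was left out.

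FZD2 and FZD7 led in MCC13, where they took 43.0% and 32.8% of the summed Frizzled level. FZD2, a receptor linked to WNT5A signalling, reached 15.5 TPM in REH and 231 TPM in MCC13, but 0.0282 TPM in WaGa, 0.343 TPM in MKL-2 and 0.0848 TPM in MKL-1. The groups were far apart, and MCC13 was higher by 7.67 ± 0.38 (SE, limma, adjusted p = 0.00855). MKL-1, MKL-2 and WaGa also lay below REH for FZD2 when MCC13 was left out of that comparison (-3.85 ± 0.27, SE, limma, adjusted p = 0.0122). FZD2 entered it only because it was high in REH. FZD7, a receptor of stem and progenitor cells, stood at 176 TPM in MCC13, 14.8 TPM in WaGa, 39.2 TPM in MKL-2, 6.43 TPM in MKL-1 and 8.20 TPM in REH. It was highest in MCC13 by 4.50 times, but it did not pass (3.40 ± 1.12, SE, limma, adjusted p = 0.186).

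FZD4, the receptor of retinal vessels, stood at 9.90 TPM in MCC13 and at 0.149, 0.327 and 0.828 TPM in WaGa, MKL-1 and MKL-2, with 0.0943 TPM in REH. It passed (2.95 ± 0.37, SE, limma, adjusted p = 0.0376), but not with a pseudocount of 0.1 TPM (adjusted p = 0.1003) or without a filter (adjusted p = 0.0625). FZD8 stood at 30.3 TPM in MCC13, 2.31 TPM in WaGa, 0.931 TPM in MKL-2, 0.657 TPM in MKL-1 and 8.78 TPM in REH (3.83 ± 0.58, adjusted p = 0.0541, limma). It passed after quantile normalization (adjusted p = 0.0493) and among genes averaging 5 TPM or more (adjusted p = 0.0330). FZD3, a receptor of axon guidance, went the other way, with 11.9 TPM in WaGa, 17.4 TPM in MKL-2, 25.0 TPM in MKL-1, 5.62 TPM in REH and 0.622 TPM in MCC13. Its lowest value among the 3 virus-positive lines was 19.1 times MCC13, with a log2 difference of -3.50 ± 0.57 (SE, limma, adjusted p = 0.0618). It passed with a pseudocount of 0.1 TPM (adjusted p = 0.0464) and among genes averaging 5 TPM or more (adjusted p = 0.0467). 

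Other Frizzleds differed less. FZD1 stood at 17.4 TPM in WaGa, 16.1 TPM in MKL-1, 14.5 TPM in REH, 8.80 TPM in MCC13 and 8.34 TPM in MKL-2. FZD5 stood at 5.19 TPM in MKL-2, 4.88 TPM in MKL-1, 4.08 TPM in REH, 3.15 TPM in MCC13 and 2.63 TPM in WaGa. For both, MCC13 and REH lay within the range of the 3 virus-positive lines. FZD9 stood at 3.77 TPM in MCC13, 1.96 TPM in MKL-2, 0.839 TPM in MKL-1, 0.141 TPM in WaGa and 0.000359 TPM in REH.

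The co-receptors were above 10 TPM in every line. LRP5 stood at 39.5 TPM in WaGa, 48.4 TPM in MKL-2, 57.0 TPM in MKL-1, 54.7 TPM in REH and 53.6 TPM in MCC13. LRP6 ranged from 40.3 TPM in MKL-1 through 24.0 TPM in MKL-2, 22.8 TPM in MCC13, 17.4 TPM in WaGa to 12.2 TPM in REH. REH was the lowest for LRP6 and WaGa for LRP5. Neither passed in MCC13 against the other 3 (log2 difference 0.16 ± 0.30 for LRP5 and -0.17 ± 0.58 for LRP6, SE, limma, adjusted p = 0.753 and 0.870) or against REH (limma, adjusted p = 0.8286 and 0.467), and the direction for LRP6 turned without MKL-1.

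Secreted inhibitors were most abundant in MCC13, where their summed level was 277.6 TPM against 0.338 to 5.89 TPM in the other 4 lines. DKK1, which blocks LRP5 and LRP6, stood at 139.5 TPM in MCC13, was listed at 0 in MKL-1 and MKL-2, and was at 0.0629 TPM in WaGa and 0.306 TPM in REH. MCC13 was higher by 7.11 ± 0.30 on the log2 scale (SE, limma, adjusted p = 0.00855). SFRP1, a decoy that resembles the ligand-binding part of a Frizzled, stood at 53.8 TPM in MCC13, 0.338 TPM in WaGa and 0.146 TPM in MKL-2, and was listed at 0 in MKL-1 and REH (5.57 ± 0.33, SE, limma, adjusted p = 0.00950). DKK3, a divergent member of the DKK family, stood at 84.3 TPM in MCC13, 3.91 TPM in WaGa, 5.74 TPM in MKL-2, 2.01 TPM in MKL-1 and 0.0328 TPM in REH. MCC13 was 14.7 times the highest of the other 3, with a difference of 4.20 ± 0.63 (SE, limma, adjusted p = 0.0536). DKK3 passed among genes averaging 5 TPM or more (adjusted p = 0.0376).

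**Figure D3:**
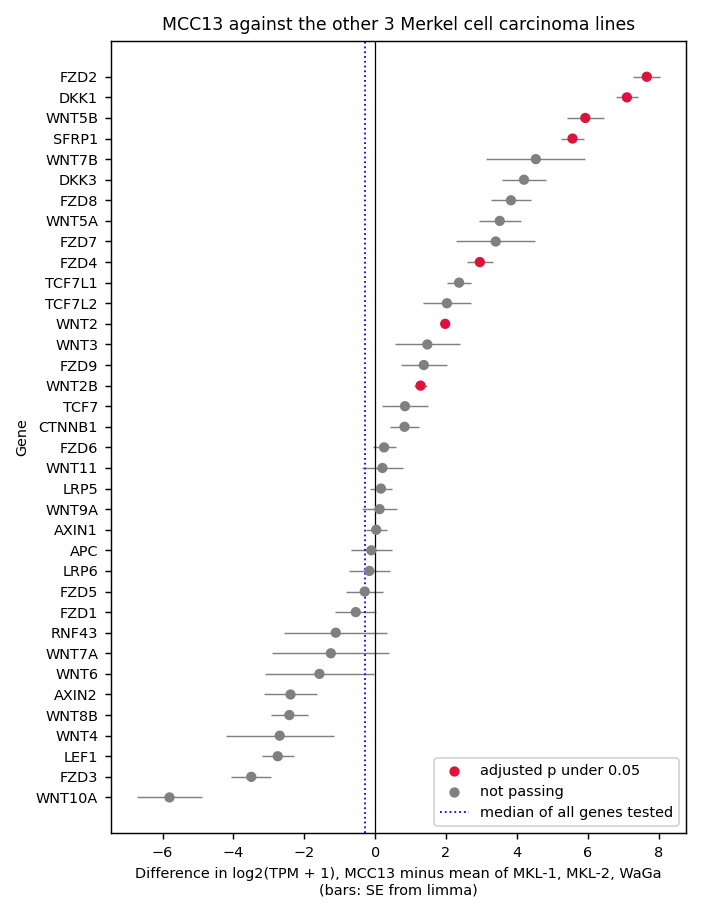
Difference in log2(TPM + 1) between MCC13 and the mean of MKL-1, MKL-2 and WaGa for the 36 tested Wnt genes, sorted, with bars for the SE from limma, red points for an adjusted p under 0.05 and a dotted line at the median of all genes tested (-0.30). FZD2, DKK1, WNT5B and SFRP1 lie furthest to the right and WNT10A furthest to the left, and the 7 red points are all on the right.

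In total 7 of the 36 tested Wnt genes were higher in MCC13 than in the other 3 lines (DKK1, FZD2, SFRP1, WNT5B, FZD4, WNT2 and WNT2B). Over all 20698 genes tested, 6.47% were called higher and 2.47% lower, 8.95% in all. No Wnt gene was called lower, although 5 were lower at an unadjusted p under 0.05 (limma), beside 13 that were higher. The median log2 difference of the 36 was 0.54, against -0.30 over all genes. MCC13 lay above each of the other 3 lines for 18 of the 36 genes, where 27.7% of all genes did, and below each of them for 9, where 43.4% of all genes did. Of the 7 genes called, 6 had entered the test through MCC13 alone, because a gene needed 1 TPM in at least 1 line, so their count describes these genes and supports no trend. Without that filter, 5 of 42 Wnt genes were called higher (7.28% of all genes were) and none lower (1.31%), where 4 were lower at an unadjusted p under 0.05. With a pseudocount of 0.1 TPM the calls were 4 higher (DKK1, FZD2, SFRP1 and WNT2) and 3 lower (WNT10A, FZD3 and WNT8B). No gene of the whole table passed once any virus-positive line was left out, which leaves 1 residual degree of freedom.

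The promoters of the genes that were higher in MCC13, as far as they are in the table used, are shown with that of WNT10A, the ligand that led in the other 3 lines. Of the 44 genes, 32 were matched in the RefSeq promoters of GRCh38.p14, and the 250 bases before the annotated start were read, 5′ to 3′ on the strand of the gene. The windows are chr10:52314031-52314280, plus strand for DKK1, chr12:1616806-1617055, plus strand for WNT5B, chr11:86955396-86955645, minus strand for FZD4, chr1:112466291-112466540, plus strand for WNT2B, chr7:117323059-117323308, minus strand for WNT2 and chr2:218880602-218880851, plus strand for WNT10A. Capitals mark GGAATG, the core bound by TEAD factors, searched on both strands.
DKK1: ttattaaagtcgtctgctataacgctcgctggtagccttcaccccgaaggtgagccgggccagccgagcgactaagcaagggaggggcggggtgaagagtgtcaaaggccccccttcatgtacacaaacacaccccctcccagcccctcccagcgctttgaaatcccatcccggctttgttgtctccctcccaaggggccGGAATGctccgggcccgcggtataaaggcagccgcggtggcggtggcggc
WNT5B: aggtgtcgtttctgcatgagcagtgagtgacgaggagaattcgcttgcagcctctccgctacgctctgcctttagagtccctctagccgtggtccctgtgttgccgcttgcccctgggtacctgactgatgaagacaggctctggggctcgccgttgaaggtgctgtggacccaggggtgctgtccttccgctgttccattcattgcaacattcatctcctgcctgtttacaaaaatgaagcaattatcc
FZD4: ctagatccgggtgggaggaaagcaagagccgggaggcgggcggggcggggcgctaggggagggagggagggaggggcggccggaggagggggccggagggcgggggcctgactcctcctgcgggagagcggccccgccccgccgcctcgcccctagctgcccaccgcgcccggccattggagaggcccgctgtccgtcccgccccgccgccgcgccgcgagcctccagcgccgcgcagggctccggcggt
WNT2B: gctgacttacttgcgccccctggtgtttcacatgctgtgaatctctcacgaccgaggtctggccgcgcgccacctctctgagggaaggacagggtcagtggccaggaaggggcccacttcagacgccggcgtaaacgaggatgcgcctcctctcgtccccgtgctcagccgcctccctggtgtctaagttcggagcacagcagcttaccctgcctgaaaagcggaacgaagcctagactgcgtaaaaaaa
WNT2: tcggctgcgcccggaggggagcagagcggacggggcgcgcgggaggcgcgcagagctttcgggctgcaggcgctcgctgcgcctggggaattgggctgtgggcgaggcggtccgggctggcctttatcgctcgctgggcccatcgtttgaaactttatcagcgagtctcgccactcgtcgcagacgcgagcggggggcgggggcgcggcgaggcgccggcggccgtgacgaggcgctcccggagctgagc
WNT10A: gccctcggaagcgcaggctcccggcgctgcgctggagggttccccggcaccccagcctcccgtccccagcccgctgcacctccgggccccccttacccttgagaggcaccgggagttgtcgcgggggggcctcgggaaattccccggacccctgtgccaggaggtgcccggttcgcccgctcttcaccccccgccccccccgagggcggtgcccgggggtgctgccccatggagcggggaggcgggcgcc
The TEAD letters occurred once among the 32 promoters, in DKK1, 50 bases before the start, and in 11.89% of the 35116 promoters of the table. The TCF/LEF letters CTTTGAT, also searched on both strands, were in none of the 32 and in 2.26% of all promoters. The windows of WNT2, FZD4 and WNT10A were rich in G and C (74.0%, 80.8% and 77.6%), while those of WNT5B (54.8%), WNT2B (60.4%) and DKK1 (62.8%) were less so, and the median of the 32 was 71.4% against 58.0% for all promoters. The genes that were higher in MCC13 thus had promoters of differing base composition.

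CTNNB1 was the most abundant of the 44 genes in every Merkel cell carcinoma line, with 226 TPM in WaGa, 135 TPM in MKL-2, 213 TPM in MKL-1, 82.6 TPM in REH and 332 TPM in MCC13. REH was below all 4, with a log2 difference of 1.38 ± 0.52 for the Merkel cell carcinoma lines (SE, limma, adjusted p = 0.272). APC, the scaffold that presents beta-catenin for phosphorylation, stood at 41.8 TPM in MKL-2, 37.5 TPM in MKL-1, 28.7 TPM in MCC13, 18.9 TPM in WaGa and 8.13 TPM in REH (1.78 ± 0.55, SE, limma, adjusted p = 0.186). AXIN1, a core scaffold of the same complex, stood at 66.1 TPM in REH, 45.0 TPM in MKL-1, 38.5 TPM in MCC13, 36.4 TPM in WaGa and 32.9 TPM in MKL-2 (-0.79 ± 0.31, SE, limma, adjusted p = 0.296). For APC and AXIN1 the difference between MCC13 and the other 3 was near 0 (-0.11 ± 0.58 and 0.03 ± 0.29, SE) and changed sign when a line was left out.

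Among the LEF/TCF factors, LEF1 was the main one in 4 lines and TCF7L2 in MCC13. LEF1, which acts in lymphocyte progenitors and in hair follicles, stood at 438.9 TPM in REH, 19.7 TPM in WaGa, 12.4 TPM in MKL-2, 13.8 TPM in MKL-1 and 1.38 TPM in MCC13. It made up 98.4% of the summed LEF/TCF level in REH, 81.8%, 79.6% and 54.7% in WaGa, MKL-1 and MKL-2, and came last in MCC13. REH was 22.3 times the highest Merkel cell carcinoma line. Over all 4 of those lines the difference was -5.47 ± 1.31 (SE, limma, adjusted p = 0.111), and without MCC13 it was -4.78 ± 0.36 and passed (adjusted p = 0.0135). The difference of MCC13 from the other 3 was -2.75 ± 0.45 (SE, limma, adjusted p = 0.0636), which did not pass.

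TCF7L2, the main factor of intestinal epithelium, stood at 17.3 TPM in MCC13, 2.34 TPM in WaGa, 6.42 TPM in MKL-2, 2.63 TPM in MKL-1 and 6.89 TPM in REH, and took 61.1% of the LEF/TCF sum in MCC13. TCF7L1, often a repressor of Wnt targets, stood at 5.67 TPM in MCC13 and 0.0841, 0.183 and 0.677 TPM in WaGa, MKL-1 and MKL-2, with 0.195 TPM in REH. Its difference was 2.37 ± 0.34 (SE, limma, adjusted p = 0.0503), and it passed after quantile normalization (adjusted p = 0.0292). TCF7, the T-cell factor, stood at 3.95 TPM in MCC13, 3.17 TPM in MKL-2, 1.94 TPM in WaGa, 0.719 TPM in MKL-1 and 0.248 TPM in REH, so MCC13 lay just above the other 3 and REH below all 4. Its differences passed neither test (limma, adjusted p = 0.476 for MCC13 and 0.430 for REH).

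**Figure D4:**
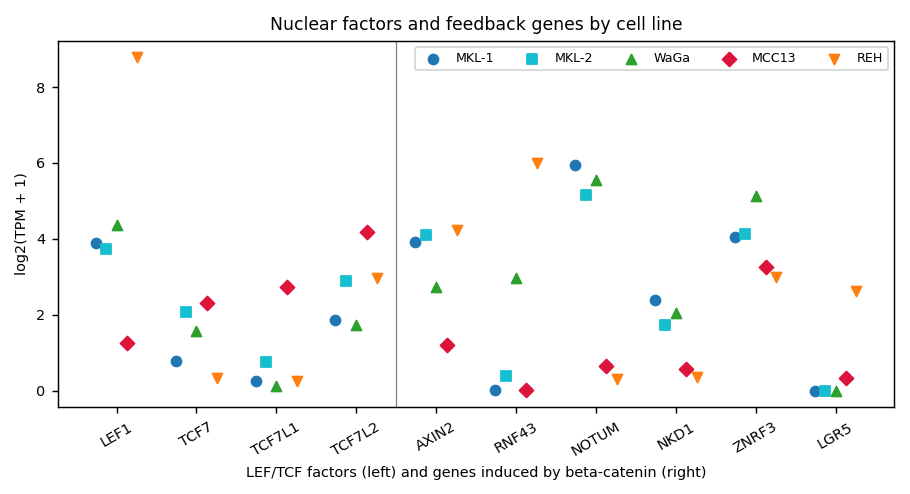
Levels as log2(TPM + 1) of the 4 LEF/TCF factors (left of the grey line) and of 6 genes that beta-catenin is known to induce (right), with 1 symbol per cell line. The 6 genes were picked from a longer set. Among those left out, CCND1, BMP4 and MYC were highest in MCC13 of the Merkel cell carcinoma lines, and NKD2 and APCDD1 lowest. REH stands highest for LEF1 and RNF43, MCC13 lowest for LEF1 and AXIN2, and NOTUM spans 34.9 to 60.5 TPM over the 3 virus-positive lines.

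Genes known to be induced by beta-catenin did not follow a common order over all the lines. Among the Merkel cell carcinoma lines, MCC13 was lowest for AXIN2, RNF43, ZNRF3, NOTUM, NKD1, NKD2 and APCDD1, though only just for RNF43. It was highest for CCND1, BMP4, MYC, LGR5, SP5 and ASCL2, and in between for TNFRSF19 and CD44. LGR5, SP5 and ASCL2 were too low to enter the test of MCC13, where they stood at 0.247, 0.356 and 0.0344 TPM. For ASCL2 the margin was again small, with 0.0304 TPM in WaGa. Of all genes tested, 43.4% were lowest in MCC13 and 27.7% were highest in it. NKD1 was at 0.480 TPM in MCC13 against at least 2.33 TPM in the other 3 (-1.49 ± 0.41, SE, limma, adjusted p = 0.142). A shared direction was not tested. AXIN2, a scaffold of the degradation complex and a widely used readout of the pathway, stood at 5.68 TPM in WaGa, 16.0 TPM in MKL-2, 14.1 TPM in MKL-1, 17.7 TPM in REH and 1.28 TPM in MCC13. MCC13 was the lowest, and the lowest of the other 3 was 4.42 times its level, but the difference did not pass (-2.39 ± 0.75, SE, limma, adjusted p = 0.174). RNF43, a ligase that removes Frizzleds from the cell surface, stood at 62.9 TPM in REH, 6.80 TPM in WaGa, 0.306 TPM in MKL-2, 0.00844 TPM in MKL-1 and 0.00602 TPM in MCC13. REH was 9.24 times the highest of the others (log2 difference of the Merkel cell carcinoma lines -5.16 ± 1.37, SE, limma, adjusted p = 0.138). ZNRF3, its paralog, showed another order, with 34.0 TPM in WaGa, 16.3 TPM in MKL-2, 15.6 TPM in MKL-1, 6.98 TPM in REH and 8.51 TPM in MCC13.

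NOTUM, a secreted enzyme that strips the lipid from Wnt ligands, had levels of 60.5 TPM in MKL-1, 45.9 TPM in WaGa and 34.9 TPM in MKL-2, while MCC13 had 0.557 TPM and REH 0.234 TPM. It was lower in MCC13, with a difference of -4.92 ± 0.44 (SE, limma, adjusted p = 0.0182). MKL-1, MKL-2 and WaGa were also above REH for NOTUM (5.25 ± 0.44, SE, limma, adjusted p = 0.0154). LGR5, an R-spondin receptor of intestinal stem cells, stood at 5.12 TPM in REH and 0.247 TPM in MCC13 and was listed at 0 in the other 3 (-2.53 ± 0.24, SE, limma, adjusted p = 0.0118), and it did not pass with a pseudocount of 0.1 TPM (adjusted p = 0.0710). CCND1, cyclin D1, reached 1484 TPM in MCC13, where the other 3 lines of that tumour had no more than 0.300 TPM and REH 0.799 TPM (10.30 ± 0.39, SE, limma, adjusted p = 0.00855). BMP4, a growth factor, was listed at 0 in the other 3, with 0.0331 TPM in REH and 12.3 TPM in MCC13 (3.73 ± 0.17, SE, limma, adjusted p = 0.00855). Of 10 tested genes on the list of beta-catenin targets, 2 were higher in MCC13 (CCND1 and BMP4) and 1 was lower (NOTUM), with a median difference of 0.02, where 6.47% of all genes were called higher and 2.47% lower. CCND1 and BMP4 reached 1 TPM among these 4 lines in MCC13 alone, and so entered the test only because they were high there. Against REH 1 of 11 was lower (LGR5), and none was higher, where 2 passed at an unadjusted p under 0.05 in either direction (limma). Without MCC13, 2 of 9 were lower (LGR5 and MYC) and 1 was higher (NOTUM), where 8.42% of all genes were called lower and 4.89% higher. NOTUM was below 1 TPM in REH and entered this comparison only because it was high in the other lines. LGR5 was below 1 TPM outside REH, and entered the comparisons with REH only because it was high there. With MCC13 kept in, 4.15% of all genes tested against REH were called lower and 1.09% higher.

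Against REH, 1 of the 36 tested Wnt genes was called over all 4 Merkel cell carcinoma lines, FZD6, which was higher. Over all 22250 genes tested 1.09% were called higher and 4.15% lower, 5.24% in all. No Wnt gene was called lower, and 2 were lower at an unadjusted p under 0.05 (limma), LEF1 and RNF43. FZD6 was below 1 TPM in REH and entered the test only because it was high in the other lines. The median difference of the 36 was 0.95, against 0.18 over all genes. All 4 lines lay above REH for 14 of the 36 genes (27.0% of all genes) and below it for 5 (25.6% of all genes). With MKL-1, MKL-2 and WaGa alone against REH, 4 of 30 tested Wnt genes were called, where 13.3% of all genes were (4.89% higher and 8.42% lower). WNT10A (5.91 ± 0.91, SE, limma, adjusted p = 0.0437) and FZD6 were higher, and LEF1 and FZD2 were lower. WNT10A and FZD6 stayed under 1 TPM in REH, while FZD2 reached that level in REH but in none of the other 3. WNT10A, FZD6 and FZD2 thus entered this comparison only through the side where they were high, and LEF1 did not. MCC13 stood apart from those 3 lines for both WNT10A, at 0.125 TPM and thus near REH, and FZD2, at 231 TPM and thus above REH. Leaving out MKL-1, MKL-2 or WaGa in place of MCC13 left no called gene. An exact permutation test cannot give p below 0.25 for 1 line against 3, or below 0.2 for 4 lines against 1.

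The rest of the pathway was read from lists. Against REH, 1 of 5 tested genes of the R-spondin group was lower (LGR5), and none of the other inhibitors, nuclear cofactors or planar polarity genes passed (limma, 1, 0 and 2 at an unadjusted p under 0.05). Over all genes tested, 4.15% were called lower and 1.09% higher, and LGR5 entered only because it was high in REH. Without MCC13, 4 of 13 planar polarity genes were higher than in REH, where 4.89% of all genes were. These were VANGL1 (4.51 ± 0.48, SE, limma, adjusted p = 0.0224), CELSR3 (3.37 ± 0.52, adjusted p = 0.0432), PTK7 (2.34 ± 0.20, adjusted p = 0.0161) and DAAM1 (2.26 ± 0.36, adjusted p = 0.0457). VANGL1 was at 0.0146 TPM in REH and entered that comparison only because it was high in the other lines. Secretion of Wnts needs PORCN, which attaches the lipid, and WLS, the carrier. The shares of all genes called in MCC13 (6.47% higher and 2.47% lower) are the background of the counts that follow, and DKK2, RSPO4, PYGO1 and DAAM2 entered the test only because they were high in MCC13. Of the 3 genes on the secretion list 1 was lower in MCC13, NOTUM, and none passed against REH (limma, 0 at an unadjusted p under 0.05). PORCN stood at 5.58 to 12.8 TPM in the 5 lines. WLS stood at 94.2 TPM in MCC13, 83.1 TPM in MKL-2, 3.54 TPM in WaGa and 0.364 TPM in MKL-1, and was listed at 0 in REH, so it was high in 2 lines and low in the other 3. Among inhibitors outside the 44 genes, DKK2 was higher in MCC13, at 1.58 TPM against a listed 0 in the other 4 lines (1.37 ± 0.10, SE, limma, adjusted p = 0.0132), as 1 of 3 tested. In the R-spondin group 1 of 4 tested genes was higher in MCC13, RSPO4, a secreted enhancer of Wnt signalling, at 33.5 TPM against at most 0.0414 TPM in the other 4 lines (5.09 ± 0.22, SE, limma, adjusted p = 0.00855). Its receptor LGR4 was not confined to MCC13, at 44.7 TPM there, 51.7 TPM in MKL-2, 4.86 TPM in MKL-1, 0.872 TPM in WaGa and 0.347 TPM in REH.

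None of 15 tested cytoplasmic transducers, among them the Dishevelled genes DVL1, DVL2 and DVL3 and the kinases GSK3A and GSK3B, passed in MCC13 against the other 3 (limma, 0 at an unadjusted p under 0.05). Their differences ran from -1.49 to 1.34 with a median of 0.04. Against REH none passed either (limma, 1 at an unadjusted p under 0.05). Of 14 nuclear cofactors 2 were higher in MCC13. TLE4, a corepressor that binds LEF/TCF factors, stood at 94.1 TPM in MCC13, 10.3, 8.003 and 11.3 TPM in WaGa, MKL-1 and MKL-2, and 18.2 TPM in REH (3.14 ± 0.35, SE, limma, adjusted p = 0.0282). PYGO1, an adaptor of the beta-catenin complex, reached 4.775 TPM in MCC13, with 0.339 TPM or less in the other 4 lines (2.39 ± 0.26, SE, limma, adjusted p = 0.0274), and did not pass with a pseudocount of 0.1 TPM (adjusted p = 0.109).

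Of 14 planar polarity genes tested, 3 were lower in MCC13 and 1 was higher, with a median difference of -1.03 against -0.30 over all genes. PTK7, a pseudokinase co-receptor, stood at 334.5, 286 and 308 TPM in WaGa, MKL-1 and MKL-2, 60.2 TPM in REH and 80.9 TPM in MCC13 (-1.92 ± 0.20, SE, limma, adjusted p = 0.0247). CELSR2, an atypical cadherin, stood at 63.0, 57.7 and 88.3 TPM in those 3 lines, 28.8 TPM in REH and 7.64 TPM in MCC13 (-3.01 ± 0.35, SE, limma, adjusted p = 0.0322). DAAM1, a formin that links Dishevelled to actin, stood at 120.3, 76.3 and 108.1 TPM there, 20.1 TPM in REH and 12.1 TPM in MCC13 (-2.94 ± 0.36, SE, limma, adjusted p = 0.0349). Its paralog DAAM2 was the gene that was higher, at 2.09 TPM in MCC13 against at most 0.0181 TPM elsewhere (1.62 ± 0.11, SE, limma, adjusted p = 0.0113). ROR2, a receptor of WNT5A, was highest in MKL-2 at 38.8 TPM, with 4.74 TPM in MCC13, 2.63 TPM in WaGa, 0.209 TPM in MKL-1 and 0.0727 TPM in REH. ROR1 stood at 16.4 TPM in MCC13 and between 0.0217 and 2.70 TPM in the other 4 lines (3.01 against the other 3 Merkel cell carcinoma lines, limma, adjusted p = 0.126).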

How the data were processed

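Bulk RNA of 5 cell lines had been sequenced, 1 library each, from mRNA selected on oligo-dT beads with a directional library kit, per the labels' protocols. The authors deposited TPM values for 57905 genes. The submitters' processing notes name bcl2fastq (2.20), STAR (2.4.5b), StringTie (1.3.5), SAMtools (0.1.19) and the builds hg19 and GRCh37. Which tool did which step, and the gene annotation, were not given in the sources used here. Read depth cannot be read from TPM, and a value of exactly 0 may be a failed estimate, so it is called listed at 0. A deposited table of PAX5 exons was not used, nor were 2 columns of values that matched no sample.

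Differences were computed from the deposited values as log2(TPM + 1), which understates changes of low genes, and tested in R 4.3.3 using limma 3.58.1 with a variance trend. Tests were 2-sided, over all genes that reached 1 TPM in a compared line, with Benjamini-Hochberg adjustment and a threshold of 0.05. MCC13 was compared with the other 3 Merkel cell carcinoma lines (2 residual degrees of freedom) and all 4 with REH (3). A single line is taken to vary like the other group, and no p-value measures a spread within a line. Each SE and p-value blends the gene's own spread between lines with the variance trend over all genes tested. WNT2, DKK2 and BMP4 were listed at 0 in the other 3 Merkel cell carcinoma lines. Their SE in the MCC13 comparison therefore rests on that trend alone. The fit was also run on simulated data with an equal spread for every gene. The genes here differ in spread, so that run does not bear on the p-values given. Alternatives were a pseudocount of 0.1 TPM, no filter, a mean of 5 TPM or more, quantile normalization and leaving out each line.

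Every Wnt gene that reached 1 TPM is named with its values, and up to 4 genes that passed from each pathway list. NKD1, ZNRF3, PORCN, WLS, LGR4, ROR1, ROR2 and the Dishevelled and GSK3 genes lie outside this rule, and their values were seen before they were chosen. The genes and lists were chosen with earlier results of these data known. Promoters came from RefSeq (GRCh38.p14) and were searched with Python 3.11.15. No coordinates were carried between builds.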

Additional observations from a re-analysis of the deposited data

Results flagged for a closer look

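In 8 of the 36 Wnt genes that reached 1 TPM, 1 Merkel cell carcinoma line stood far from the other 3 on the log2(TPM + 1) scale, with a gap to the nearest line of 0.861 to 1.0 of the range. Chance flags about 1 in 20 unselected groups, but genes chosen for reaching 1 TPM in a line are not unselected. Of all 22250 genes chosen that way, 14.4% stood out by the same measure, and of the 36 Wnt genes 22.2%. Of the 8, 7 reached 1 TPM among the Merkel cell carcinoma lines in the outlying line alone (WNT5B did not), so their number is a description. MCC13 was the high line for DKK1 (139.5 TPM), FZD2 (231 TPM), SFRP1 (53.8 TPM), WNT2 (2.94 TPM), WNT2B (2.78 TPM) and WNT5B (89.7 TPM), 6 of the 7 genes called higher in it. WaGa was the high line for RNF43 (6.80 TPM, 22.3 times the higher of MKL-1 and MKL-2) and WNT7A (11.9 TPM, 21.5 times). The other lines' values for these genes stand in the report.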

How the results depend on the processing

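Each setting was changed alone. The number of Wnt genes called in MCC13 against the other 3 lines was 7, and 5 to 9 under the other pseudocount, both filters and quantile normalization, but 0 to 0 when a virus-positive line was left out, which removes 1 of 2 residual degrees of freedom (16 or 17 at an unadjusted p under 0.05). Against REH it was 1 under those 4 settings, and 0 to 4 when a line was left out, the 4 without MCC13. All genes called in the MCC13 comparison numbered 1852, 3312 without a filter, 1167 at a mean of 5 TPM or more, and 0 to 0 with a line left out. Against REH they numbered 1166, 3694 without a filter, 288 at a mean of 5 TPM or more, and 0 to 2828 with a line left out. The share called higher moved with the setting: of the MCC13 calls 1340 were higher and 512 lower, against 983 and 711 with a pseudocount of 0.1 TPM and 543 and 624 at a mean of 5 TPM or more, and of the REH calls 243 and 923 became 403 and 482, and 160 and 128. Quantile normalization moved the median of all genes from -0.30 to -0.13 for MCC13 and from 0.18 to 0.03 against REH. The cause was not tested.

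Directions turned for genes that passed no test in that comparison. As log2 differences of MCC13 from the other 3, APC was 0.032 after quantile normalization. With a line left out, APC ran from -0.45 to 0.10, AXIN1 from -0.068 to 0.15 and LRP6 from -0.43 to 0.15. WNT11 ran from -0.0060 to 0.046 and WNT9A from -0.039 to -0.024 without MKL-1 or WaGa, and neither was tested without MKL-2, since both then fell below 1 TPM. Against REH, with a line left out, FZD5 ran from -0.19 to 0.069, TCF7L2 from -0.82 to 0.0016, TLE4 from -0.83 to 0.30 and WNT5B from -0.13 to 1.98. No paired analysis was possible because each line gave 1 library and no replicate number links the groups. Depth limits cannot be given for TPM.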
